A study of Mus musculus with 2 samples.

Results

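Dpp4, Cd55, Cd248, Anxa3, Sema3c, Opcml, Cd34 and Ly6a are a set of 8 genes by which a progenitor-like fibroblast of many tissues is often recognised. They were picked by name from the 32285 genes of the count tables, and all 8 had transcripts. The cells come from Clec3b.creERT2; Ai14.R26.tdTomato mice, in which tamoxifen lets a Cre recombinase knocked in behind the Clec3b coding sequence switch on the red protein tdTomato for good, so that the mark stays after Clec3b expression has ended. All mice carried both alleles and received tamoxifen 2 weeks before surgery, a stabilized fracture of the right femur (osteotomy over an intramedullary pin) was made at 6 weeks of age, and tissue was taken 3 weeks after surgery. The intact library holds tdTomato-sorted cells of unfractured femoral shafts with the muscle around them (treatment "None"), and the callus library holds such cells of the fracture calluses. Specimens of 3 littermates were pooled by condition, and whether each mouse gave both tissues is not spelled out in the sources used here. Each condition is thus 1 library, mice cannot be told apart, and no test between conditions was possible.

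The progenitor-like fibroblast marked by Pi16 sits in the adventitia around vessels and in the loose tissue between muscles, and is thought to give rise to more specialised fibroblasts such as the Col15a1-expressing cells of the tissue proper. Muscle fibro-adipogenic progenitors are commonly sorted by Pdgfra and by Sca-1, the product of Ly6a. Of the 8 genes, Dpp4 encodes a peptidase that trims chemokines, Cd55 a complement inhibitor, Cd248 the stromal lectin endosialin and Opcml an adhesion protein of the IgLON family, while Cd34 is a sialomucin shared with blood progenitors and endothelium. Anxa3, a phospholipid-binding annexin, acts mostly inside the cell, and Sema3c is a secreted semaphorin, so these are not surface proteins in the strict sense.

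Promoter sequences (RefSeq, build GRCm38.p6, 250 bases before to 50 after the start) were found for 5 of the 8 genes. They are shown for 2 pairs of genes, grouped by where they were found outside fibroblasts. Pearson r of the levels over cell classes was 0.95 for Sema3c and Opcml and 0.76 for Dpp4 and Cd55. For Cd55 it was 0.79 with Sema3c and 0.80 with Opcml, so r did not set the pairs apart. The first pair is Sema3c (chr5:17574566-17574865, plus strand) and Opcml (chr9:27791049-27791348, plus strand), which were hardly seen outside stroma, and the second is Dpp4 (chr2:62412182-62412481, minus strand) and Cd55 (chr1:130462695-130462994, minus strand), whose other main site was the B lineage. Capitals mark every match, on either strand, to 6 motifs, and matches of different motifs did not overlap. The motifs were the TATA box TATAAA, which 13.6% of 32851 RefSeq promoters of this length hold, and CCAAT (37.4%). The GC box GGGCGG is in 35.7% of them and the E-box CANNTG in 72.3%. An AP-1 site was read as TGANTCA (7.81%) and a TEAD site as GGAATG (14.7%).
Sema3c: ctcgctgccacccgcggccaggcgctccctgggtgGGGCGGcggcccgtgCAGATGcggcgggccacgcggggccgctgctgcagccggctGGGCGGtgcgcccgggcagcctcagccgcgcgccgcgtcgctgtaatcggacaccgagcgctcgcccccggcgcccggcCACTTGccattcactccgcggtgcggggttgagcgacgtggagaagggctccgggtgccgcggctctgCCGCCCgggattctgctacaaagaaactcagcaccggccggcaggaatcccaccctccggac
Opcml: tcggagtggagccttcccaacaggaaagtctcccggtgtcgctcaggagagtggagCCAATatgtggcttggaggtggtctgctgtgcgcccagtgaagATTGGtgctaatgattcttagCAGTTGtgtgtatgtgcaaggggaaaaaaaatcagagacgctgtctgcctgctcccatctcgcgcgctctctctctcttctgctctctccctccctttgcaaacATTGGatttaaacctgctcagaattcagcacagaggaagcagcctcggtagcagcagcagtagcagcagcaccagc
Dpp4: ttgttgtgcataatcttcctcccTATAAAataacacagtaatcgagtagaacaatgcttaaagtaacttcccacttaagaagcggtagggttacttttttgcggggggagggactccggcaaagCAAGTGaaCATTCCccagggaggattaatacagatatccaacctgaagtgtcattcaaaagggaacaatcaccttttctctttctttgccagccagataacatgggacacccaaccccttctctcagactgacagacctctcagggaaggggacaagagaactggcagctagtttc
Cd55: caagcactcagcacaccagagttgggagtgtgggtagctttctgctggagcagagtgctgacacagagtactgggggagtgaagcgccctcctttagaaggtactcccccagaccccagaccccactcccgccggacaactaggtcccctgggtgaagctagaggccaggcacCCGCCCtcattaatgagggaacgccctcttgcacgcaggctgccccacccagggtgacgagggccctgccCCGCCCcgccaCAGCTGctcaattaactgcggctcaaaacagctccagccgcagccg
The Sema3c promoter held 42 CpG dinucleotides, a count higher than in 97.0% of all promoters, with 3 GC boxes and 2 E-boxes. Opcml had 9 CpG, 3 CCAAT boxes and 1 E-box, Cd55 had 12 CpG, 2 GC boxes and 1 E-box, and Dpp4 had 4 CpG with 1 TATA box, 1 E-box and 1 TEAD match. The Cd34 promoter (chr1:194938571-194938870, plus strand) had 7 CpG and no match. No motif was shared by all 5, the E-box was found in 4 of them, and a match is a description of letters, not of a bound site.

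On GRCm38 the genes lie apart from each other. Dpp4 (ENSMUSG00000035000) lies at chr2:62330073-62412231 on the minus strand with up to 26 exons, Cd55 (ENSMUSG00000026399) at chr1:130439027-130462744 on the minus strand with 10, and Cd248 (ENSMUSG00000056481) at chr19:5068078-5070682 on the plus strand with 1. Anxa3 (ENSMUSG00000029484) lies at chr5:96793339-96845966 and Sema3c (ENSMUSG00000028780) at chr5:17574281-17730268, both on the plus strand, with 13 and 18 exons. Opcml (ENSMUSG00000062257) spans chr9:27790775-28925410 and Cd34 (ENSMUSG00000016494) chr1:194938819-194961279, both plus, with 8 exons each, and Ly6a (ENSMUSG00000075602) spans chr15:74994877-74998031 on the minus strand with 4. On the same strand Gm42603 overlaps Anxa3, and Gm15606 and Gm44316 overlap Opcml, so reads there could be split, which was not tested.

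A barcode was kept as a cell from 500 genes upward if mitochondrial genes gave no more than 10% of its unique molecular identifiers (UMIs). This left 1207 of 1872 in the intact library (median 4939 UMIs) and 3295 of 3987 in the callus library (median 6843 UMIs), and 1 barcode occurred in both. Cell classes were gated on marker lists that hold none of the 8 genes and not Clec3b, and are named by the list. The gates found 283 intact and 214 callus fibroblasts, of which 203 and 116 were Pi16-type, 57 and 23 Col15a1-type, 6 and 38 tendon-like, and 17 and 37 mixed, with no list leading clearly. Although the sort was for tdTomato, blood cells were numerous, among them 283 and 639 neutrophil-like and 238 and 520 B-lineage-like cells. The paper saw no meaningful tdTomato in blood and endothelial populations, took them for artifacts of the sort and excluded them. Here such cells were kept for comparison. The mice are described as male, yet of fibroblasts from 5000 UMIs upward 193 of 198 (intact) and 158 of 161 (callus) had Xist, while 4 Y-linked genes held 1 and 0 UMIs, so both libraries went against that label. Within Pi16-type fibroblasts, Pi16 itself stood at 3643 CPM (intact) and 2380 CPM (callus) and Col15a1 at 2.75 and 18.3, while in Col15a1-type cells Col15a1 stood at 979 and 1075 and Pi16 at 205 and 406. CPM is the gene's UMIs per 1000000 UMIs of all cells of a class summed, given with an exact 95% Poisson interval that covers counting error only, not the spread between mice.

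All 8 genes were highest in Pi16-type fibroblasts in both libraries, over the 9 intact and 16 callus classes with at least 20 cells. Away from fibroblasts they fell into 4 patterns. Cd248, Sema3c and Opcml were nearly confined to stroma, Dpp4 and Cd55 were also found in the B lineage, Anxa3 in endothelium, blood progenitors and neutrophils, and Cd34 and Ly6a in endothelium. At lower levels, Cd34 was also found in progenitor-like cells and Ly6a in T-like cells. The map of CPM by class gives the whole pattern.

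**Figure D1:**
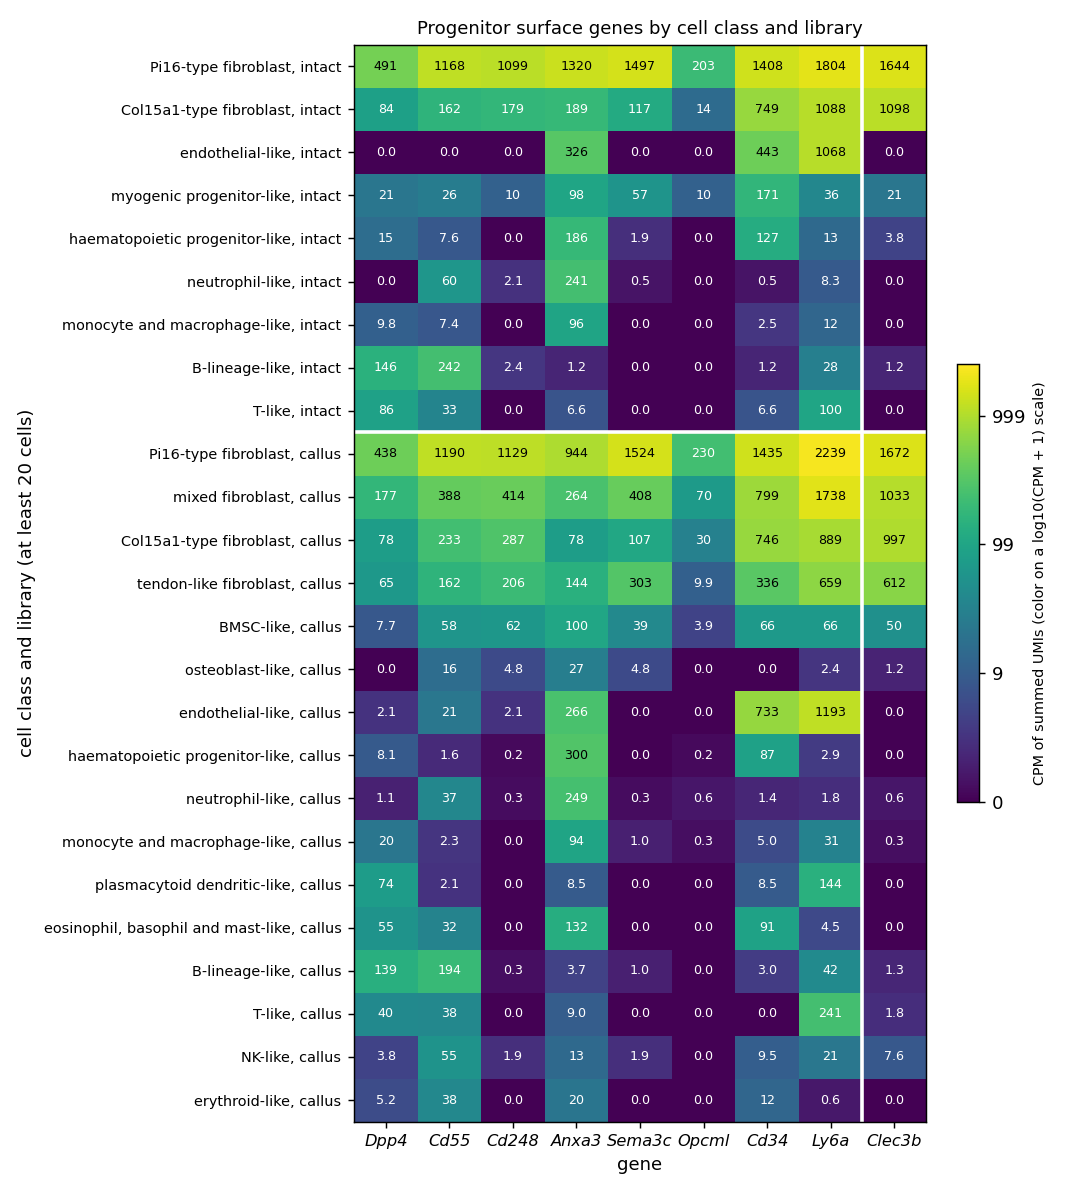
CPM of the 8 genes and of Clec3b (columns, right of the white line) in every class with at least 20 cells, intact library above and callus library below the white line, with color on a log10(CPM + 1) scale and the CPM printed in each field. The Pi16-type rows are highest for every gene, Opcml is at most 10.4 CPM outside fibroblasts, Sema3c is at most 57.0 CPM there, and Cd34 and Ly6a are also bright in the endothelial-like rows.

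Cd248, which binds matrix and is typical of pericytes and fibroblasts, had 1099 CPM (1046 to 1154) in Pi16-type fibroblasts of the intact library and 1129 CPM (1061 to 1199) in those of the callus. Fibroblasts of all types held 97.6% of its 1783 UMIs in the intact and 93.6% of its 1390 UMIs in the callus library. The highest other classes were myogenic progenitor-like cells at 10.4 CPM (1.25 to 37.4) in the intact and BMSC-like cells, the marrow stroma, at 61.7 CPM (35.3 to 100) in the callus library. Both are far below the Pi16-type level, and 4 of 7 intact and 5 of 12 callus classes other than fibroblasts had no Cd248 UMI.

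For Sema3c, a secreted ligand of neuropilins and plexins, the Pi16-type level was 1497 CPM (1435 to 1562) with the intact and 1524 CPM (1446 to 1606) with the callus tissue. Fibroblasts held 97.8% and 96.2% of its UMIs. Outside fibroblasts the highest classes were intact myogenic progenitor-like cells at 57.0 CPM (28.4 to 102), where all 11 UMIs came from 1 cell of 25, and callus BMSC-like cells at 38.6 CPM (18.5 to 70.9). In endothelial-like cells no Sema3c UMI was seen, which allows up to 39.1 CPM in the 29 intact and 6.39 CPM in the 97 callus cells. Pi16-type cells had 203 (181 to 228) and 230 (200 to 263) CPM of Opcml, and fibroblasts held 97.5% of 314 and 91.7% of 265 UMIs. It had no UMI in 6 of 7 intact and 8 of 12 callus classes other than fibroblasts, and its low counts make it the least precise of the 8.

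Dpp4 reached 491 CPM (456 to 529) among intact Pi16-type fibroblasts, and the callus level was 438 CPM (396 to 483). B-lineage-like cells came next among the other classes, with 146 (121 to 174) and 139 (126 to 153) CPM. In the intact library B-lineage-like cells lay above Col15a1-type fibroblasts (83.5 CPM, 58.2 to 116) with intervals apart, and T-like cells (86.3 CPM, 46.0 to 148) overlap both, so only their place is not resolved. Because B-lineage-like cells were many, they held 12.3% of all intact and 31.0% of all callus Dpp4 UMIs, against 80.3% and 37.1% in fibroblasts. Neutrophil-like cells had 0 UMIs in 283 intact and 7 in 639 callus cells.

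Cd55 shields cells from complement. Pi16-type fibroblasts had 1168 (1113 to 1225) and 1190 (1121 to 1262) CPM, and B-lineage-like cells 242 (209 to 278) and 194 (178 to 210) CPM. In the intact library B-lineage-like cells lay above Col15a1-type fibroblasts (162 CPM, 126 to 206), and the intervals do not overlap, while in the callus library Col15a1-type fibroblasts stood at 233 CPM (166 to 318) and the intervals do overlap. Neutrophil-like cells had lower levels, 59.9 CPM (49.5 to 71.8) and 36.5 CPM (32.1 to 41.4). Its near-identical copy Cd55b had 4 UMIs over all kept cells, and how reads shared by both copies were counted was not tested.

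Anxa3 reached at least 100 CPM in 3 of 7 intact and 5 of 12 callus classes other than fibroblasts. Pi16-type fibroblasts had 1320 (1262 to 1381) and 944 (883 to 1009) CPM, and endothelial-like cells 326 (211 to 481) and 266 (222 to 317) CPM. Beside this, the neutrophil list summed to 22399 CPM over the 29 intact endothelial-like cells, with a median of 432 CPM per cell, and to 469 CPM in the callus, and its part in the Anxa3 level was not tested. Haematopoietic progenitor-like cells, gated on Kit, Mpo, Elane and others, had 186 (151 to 227) and 300 (289 to 312) CPM, and neutrophil-like cells 241 (220 to 264) and 249 (237 to 261) CPM. Fibroblasts therefore held 73.8% of Anxa3 UMIs in the intact but only 16.2% in the callus library, where the 281 haematopoietic progenitor-like cells, with a median of 31161 UMIs each, held 42.8%. In the callus library endothelial-like, haematopoietic progenitor-like and neutrophil-like cells lay above Col15a1-type fibroblasts (77.6 CPM, 41.3 to 133), with intervals apart. In the intact library all of them overlap Col15a1-type fibroblasts (189 CPM, 149 to 235).

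The sialomucin Cd34 reached 1408 (1348 to 1470) and 1435 (1359 to 1514) CPM in Pi16-type fibroblasts, and endothelial-like cells had 443 (307 to 619) and 733 (657 to 814) CPM. The callus endothelial-like level overlaps that of callus Col15a1-type fibroblasts, 746 CPM (621 to 889). Cd34 was lower in the progenitor-like classes of blood and muscle. Stem cells were not told apart in the blood class, which was gated on Mpo and Elane as well as Kit. The neutrophil list summed to 8488 (intact) and 35957 (callus) CPM in it, with medians of 139 and 537 CPM per cell. Haematopoietic progenitor-like cells had 127 (98.8 to 162) and 87.4 (81.4 to 93.7) CPM, and the 25 intact myogenic progenitor-like cells, the satellite cell class of muscle, had 171 (118 to 240) CPM. In the 14 callus myogenic progenitor-like cells it was 52.2 CPM (23.9 to 99.1). Fibroblasts held 92.3% of intact and 54.9% of callus Cd34 UMIs, and endothelial-like cells 1.26% and 10.3%. Haematopoietic progenitor-like cells held 2.49% and 23.6%.

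For Ly6a, which encodes the GPI-anchored Sca-1, Pi16-type fibroblasts had 1804 (1736 to 1874) and 2239 (2143 to 2337) CPM. Endothelial-like cells had 1068 (850 to 1326) and 1193 (1096 to 1296) CPM. The intact level overlaps that of intact Col15a1-type fibroblasts. The callus level lay above that of callus Col15a1-type fibroblasts (889 CPM, 752 to 1044), with intervals apart. The Pi16-type level was 1.69 times (intact) and 1.88 times (callus) the endothelial-like level, the smallest lead among the 8 genes over a class other than fibroblasts in each library. T-like cells had 99.6 (55.8 to 164) and 241 (201 to 285) CPM, and haematopoietic progenitor-like cells 13.3 (5.35 to 27.4) and 2.88 (1.88 to 4.23) CPM. Fibroblasts held 93.6% of intact and 68.5% of callus Ly6a UMIs, and endothelial-like cells 2.35% and 12.8%.

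Between the fibroblast types, 6 of the 8 genes were at least 2-fold higher in Pi16-type than in Col15a1-type cells of the intact library, where 9.88% of 8181 genes with at least 20 UMIs in the pair of groups were that much higher. In the callus library it was 7 of 8, against 11.3% of 6751 genes. No member was 2-fold lower, against 7.87% and 8.53% of genes. The median log2 ratio of the 8 genes was 2.71 (intact) and 2.43 (callus), and that of all compared genes −0.02 and −0.01. The 8 genes are ones by which such a fibroblast is recognised, and the gate limits were chosen with their levels in view. These counts are therefore descriptions.

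The ratio differed widely among the members. Sema3c had 1497 against 117 CPM in the intact library, a log2 ratio of 3.68 (3.27 to 4.12), and 1524 against 107 CPM in the callus, a log2 ratio of 3.83 (3.16 to 4.59). Opcml had log2 ratios of 3.83 (2.69 to 5.29) and 2.94 (1.70 to 4.58), resting on 6 and 5 UMIs in Col15a1-type cells. For Anxa3 the log2 ratios were 2.81 (2.48 to 3.15) and 3.60 (2.82 to 4.52), for Cd55 2.85 (2.50 to 3.22) and 2.35 (1.89 to 2.85), for Cd248 2.62 (2.28 to 2.97) and 1.98 (1.56 to 2.43), and for Dpp4 2.56 (2.07 to 3.09) and 2.50 (1.71 to 3.42). For these 6 genes the intervals exclude a 2-fold ratio in either library, between types whose gate limits were chosen with the genes' levels in view. The callus sizes depended on how the types were drawn. With Leiden clusters in place of gates the log2 ratio was 1.41 for Dpp4, 1.07 for Cd248, 2.62 for Anxa3 and 2.41 for Sema3c, and with types from Pi16 and Col15a1 UMIs alone it was 3.38 for Cd55, 2.80 for Cd248 and 2.01 for Cd34.

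Cd34 and Ly6a had lower ratios. Cd34 had log2 ratios of 0.91 (0.74 to 1.09) and 0.94 (0.68 to 1.22), under 2-fold in both libraries. Ly6a was under 2-fold in the intact (0.73, 0.58 to 0.88) and above it in the callus library (1.33, 1.09 to 1.58), where it fell to 0.62 with Leiden clusters and 0.80 with types scored within fibroblasts. Clec3b, which is not a member, was under 2-fold in both, with 1644 against 1098 CPM (log2 ratio 0.58, 0.44 to 0.73) in the intact and 1672 against 997 CPM (0.75, 0.52 to 0.99) in the callus library. All 8 genes were also at least 2-fold higher in Pi16-type than in tendon-like fibroblasts of the callus, where 12.2% of 7357 genes were, with log2 ratios from 1.76 (Ly6a) to 4.53 (Opcml). Ratios with tendon-like cells were not recomputed with other ways of drawing the types.

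**Figure D2:**
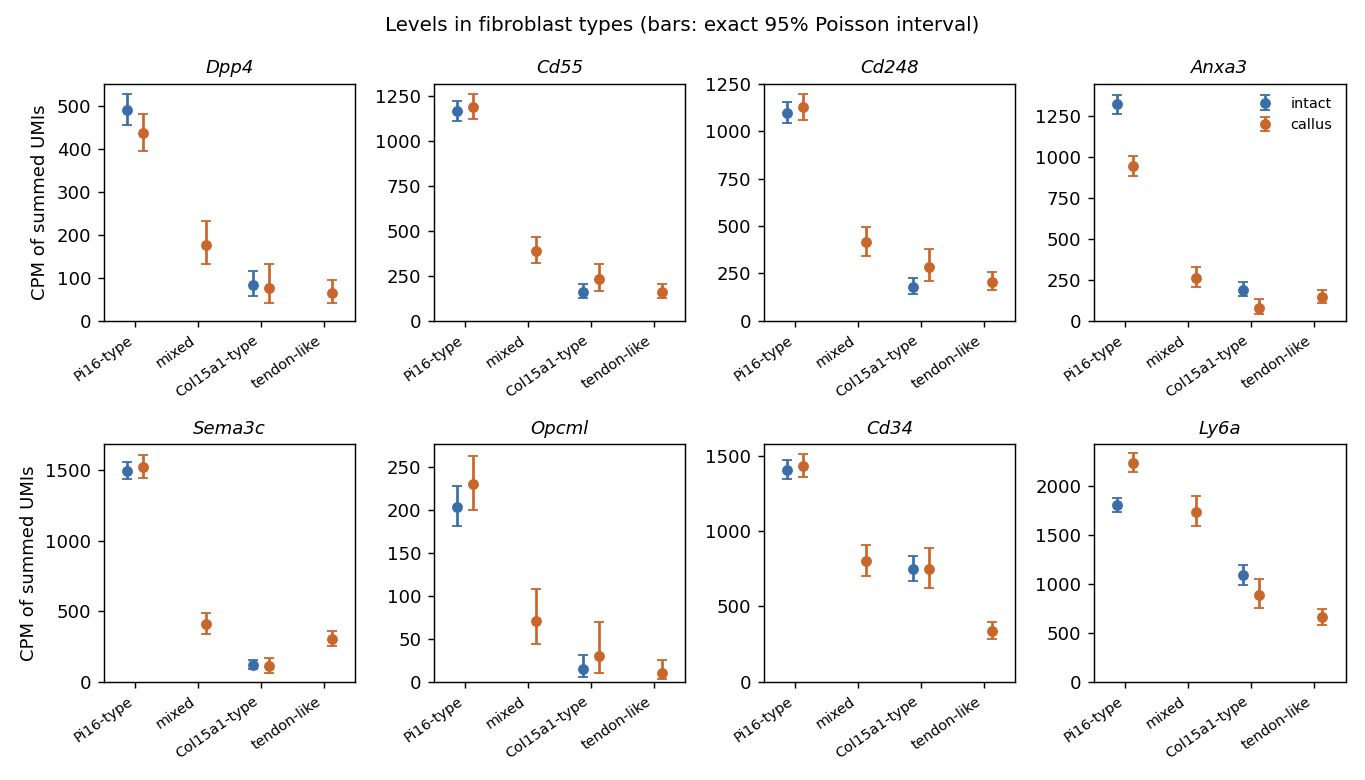
CPM of each gene (y axis, starting at 0, with its own scale) in the fibroblast types with at least 20 cells (x axis), intact in blue and callus in orange, with exact 95% Poisson intervals as bars. Pi16-type cells lie above all other types for each gene, and mixed callus fibroblasts lie between the Pi16-type and Col15a1-type levels.

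Between Col15a1-type and tendon-like callus fibroblasts 5 of the 7 genes with enough UMIs were under 2-fold apart. Cd34 was higher in Col15a1-type cells, 746 against 336 CPM, a log2 ratio of 1.15 (0.79 to 1.51), and Sema3c was lower, 107 against 303 CPM, a log2 ratio of −1.50 (−2.30 to −0.78). Of the 7 genes 1 was therefore at least 2-fold higher and 1 lower, against 8.24% and 8.15% of 4477 genes. With 7 genes, 1 each way is not set apart from these shares. The line between these types depended on how they were drawn. With Leiden clusters 11 of the 23 gated Col15a1-type callus cells kept that name, and 83 callus cells in place of 38 were tendon-like. Mixed fibroblasts of the callus had 177 CPM (133 to 232) of Dpp4 and 408 CPM (339 to 487) of Sema3c, between the Pi16-type and Col15a1-type levels.

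The same gated types were also compared cell by cell. Cells were thinned to 2500 UMIs each, since deeper cells show more genes, which left out 23 intact and 16 callus Pi16-type, 1 and 0 Col15a1-type and 16 and 22 endothelial-like cells. A thinned Pi16-type cell carried a mean of 6.63 of the 8 genes in the intact and 6.66 in the callus library, and no such cell carried fewer than 3. Col15a1-type cells carried 2.95 and 3.09, tendon-like callus cells 2.42, endothelial-like cells 2.00 and 2.09, and blood classes together 0.560 and 0.530. All 8 genes were found in 42 of 180 Pi16-type cells of the intact and 19 of 100 of the callus library, and in none of 56 and 23 Col15a1-type cells.

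At least 6 of the 8 genes were carried by 166 of 998 intact and 100 of 2846 callus cells of any class. Fibroblasts made up 165 of the 166 (99.4%, exact Clopper-Pearson lower bound 96.7%) and 96 of the 100 (96.0%, 90.1 to 98.9%), and Pi16-type fibroblasts 155 and 88. The others were 1 intact and 3 callus cells that passed the gates of 2 lineages and 1 BMSC-like callus cell. The gates used none of these genes, but their limits were chosen with the genes' levels in view. How doublets bear on this count was not tested.

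**Figure D3:**
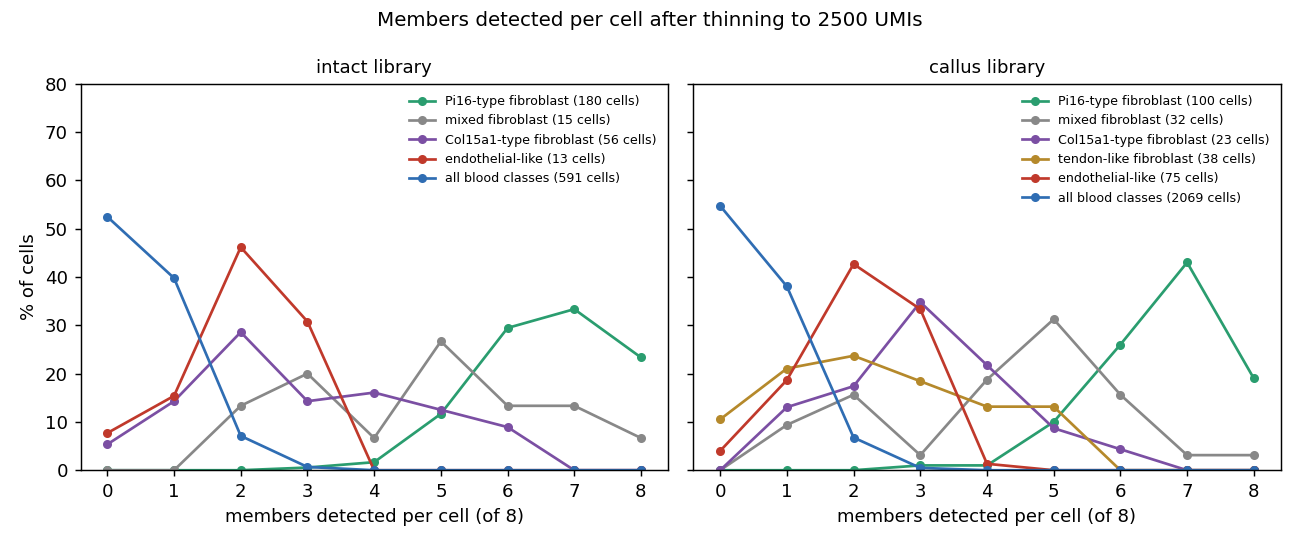
Percent of cells (y axis) carrying 0 to 8 of the genes (x axis) after thinning to 2500 UMIs, by cell class, for classes with at least 10 thinned cells in the library shown. Pi16-type fibroblasts peak at 7 genes in both libraries, Col15a1-type at 2 (intact) and 3 (callus), endothelial-like at 2 and blood cells at 0.

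The share of thinned Pi16-type cells with at least 1 UMI ranged from 39.4% (intact, 32.3 to 47.0%) and 41.0% (callus, 31.3 to 51.3%) for Opcml to 98.3% (95.2 to 99.7%) and 97.0% (91.5 to 99.4%) for Ly6a. For Dpp4 it was 69.4% and 70.0%, and for Cd55, Cd248, Anxa3, Sema3c and Cd34 it lay between 85.0% and 98.0%. In neutrophil-like cells, where Ly6a and Dpp4 are at background, 3.33% of 270 intact and 0.162% of 617 callus cells carried Ly6a and none carried Dpp4. Median depths before thinning were 7399 and 7588 UMIs in Pi16-type and 6017 and 8140 in neutrophil-like cells.

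Pairs of members were found together in the same fibroblasts more often than the product of their shares in all 28 pairs of either library. The excess was largest for Anxa3 and Sema3c in the intact library, found together in 66.8% of 256 fibroblasts where the product is 55.7%, and for Cd55 and Sema3c in the callus, with 53.9% of 193 against 42.3%. Within Pi16-type cells alone the excess was small, above the product in 17 of 28 intact and 16 of 28 callus pairs, with a median of 0.42 and 0.26 percentage points. The largest excess was that of Dpp4 and Opcml, with 30.6% against 27.4% of 180 intact and 31.0% against 28.7% of 100 callus cells. The other pairs lay at or below the product. They went down to −1.26 points for Anxa3 and Opcml in the intact and −2.31 points for Cd248 and Opcml in the callus library. No p is given, since the cells of a library are not replicates.

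Clec3b, which encodes the secreted lectin tetranectin, drives the Cre of these mice, and its overlap with the 8 genes is described here. The cells came from a sort for the mark, and Clec3b was read weeks after tamoxifen. Which cells the mark reaches was therefore not tested. In thinned fibroblasts Clec3b was found in 242 of 256 intact and 174 of 193 callus cells. Ly6a was carried by 93.4% (89.5 to 96.2%) of the intact and 93.1% (88.3 to 96.4%) of the callus Clec3b-positive cells, and 91.3% (87.0 to 94.5%) and 89.1% (83.5 to 93.3%) carried Cd34. Sema3c was in 76.4% and 69.5%, Anxa3 in 75.6% and 64.4%, Cd248 in 73.1% and 69.5%, Cd55 in 73.1% and 67.8%, Dpp4 in 58.3% and 49.4%, and Opcml in 30.2% and 25.9%.

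Clec3b-negative fibroblasts were few, 14 intact and 19 callus cells. In the callus all 8 genes were rarer in them, and for Dpp4, Cd55, Cd248, Anxa3, Cd34 and Ly6a the shares were 21.1%, 21.1%, 21.1%, 15.8%, 52.6% and 42.1%. For Dpp4 the intervals overlap (41.8 to 57.1% in positive and 6.05 to 45.6% in negative cells), and they were apart for 5 of the 8 genes. In the intact library 7 of 8 were rarer and Cd34 was not, with 92.9% of 14 cells, and none of the intervals were apart. The fibroblast types were not evenly spread over this split. In the callus 11 of the 19 Clec3b-negative cells were tendon-like and 3 Pi16-type, while 97 of the 174 positive cells were Pi16-type. Within Pi16-type cells the shares were higher in positive cells for 5 of 8 genes in the intact (175 against 5 cells) and 4 of 8 in the callus library (97 against 3 cells), with none of the intervals apart, so a difference in Clec3b and one in fibroblast type cannot be told apart here. Clec3b-negative cells include cells whose few Clec3b transcripts were missed.

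**Figure D4:**
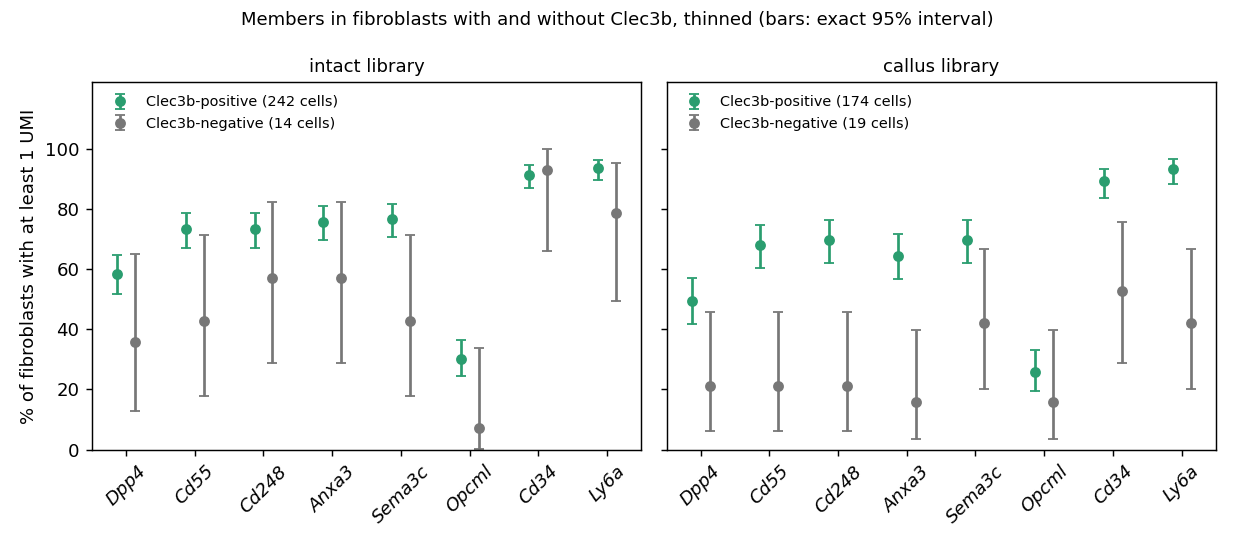
Percent of thinned fibroblasts with at least 1 UMI of each gene (y axis) among Clec3b-positive (green) and Clec3b-negative (grey) cells of either library, with exact 95% Clopper-Pearson intervals as bars. In the callus the grey points lie below the green ones for all 8 genes, and in the intact library the wide grey bars reach the green ones.

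Read from the members' side, fibroblasts carrying a given member nearly always carried Clec3b, from 94.4% (Cd34) to 98.6% (Opcml) in the intact and from 93.8% (Opcml and Sema3c) to 97.4% (Anxa3) in the callus library. Clec3b was in 242 of 256 intact and 174 of 193 callus fibroblasts irrespective of the members. The sort was for a mark that Clec3b switches on, so high shares here are not particular to the members. Over all kept cells the members differed much more. Shares over all kept cells also depend on how many blood and endothelial-like cells passed the sort. Of cells with Sema3c, 95.9% (intact) and 88.7% (callus) also had Clec3b, of cells with Ly6a 79.6% and 45.8%, of cells with Dpp4 66.4% and 30.6%, and of cells with Anxa3 55.8% and 16.6%. Of cells with both Pdgfra and Ly6a, the pair by which fibro-adipogenic progenitors are sorted, 147 of 157 intact (93.6%, 88.6 to 96.9%) and 102 of 106 callus cells (96.2%, lower bound 90.6%) carried Clec3b. Fibroblasts made up 154 and 102 of these cells, which was in part set by the gates, since Pdgfra is a marker of the fibroblast list.

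The pair of Cd34 and Ly6a was also common outside Pi16-type fibroblasts. Cd34 and Ly6a occurred together in 94.4% and 96.0% of Pi16-type cells (180 intact, 100 callus), in 60.7% of 56 and 73.9% of 23 Col15a1-type cells and in 61.5% of 13 and 61.3% of 75 endothelial-like cells. Pdgfra and Ly6a occurred together in 58.9% and 54.0% of Pi16-type and 60.7% and 73.9% of Col15a1-type cells, and in 0 of 13 and 1 of 75 endothelial-like cells. In 279 callus haematopoietic progenitor-like cells, among which stem cells were not told apart, Cd34 and Ly6a were found together once.

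Between callus and intact Pi16-type fibroblasts no member was 2-fold apart, against 6.86% of 8793 genes, and no interval reaches a 2-fold ratio. The log2 ratios of Cd55, Cd248, Sema3c and Cd34 were 0.03 (−0.08 to 0.14), 0.04 (−0.08 to 0.15), 0.03 (−0.07 to 0.12) and 0.03 (−0.07 to 0.13), and the median of all compared genes was also 0.03. Dpp4 had −0.17 (−0.34 to 0.01) and Opcml 0.18 (−0.08 to 0.44). The intervals of Anxa3 and Ly6a exclude 0. Anxa3 was lower in the callus library, 944 against 1320 CPM (log2 ratio −0.48, −0.60 to −0.37), and Ly6a higher, 2239 against 1804 CPM (0.31, 0.23 to 0.40). With 1 library each, a difference between conditions and one between libraries cannot be told apart. Beside it, the 8 neutrophil markers summed to 813 CPM in intact and 7980 CPM in callus Pi16-type cells (medians over cells 167 and 286 CPM), the endothelial list stood at 9.62 and 10.8 CPM, and the part of either in these ratios was not tested.

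In Col15a1-type fibroblasts 1 of the 7 genes with enough UMIs was 2-fold apart, against 11.7% of 4615 genes. It was Anxa3, with 77.6 CPM in the callus (13 UMIs) against 189 CPM in the intact library (79 UMIs), a log2 ratio of −1.28 (−2.25 to −0.42), and the ratio fell under 2-fold in 5 of 10 alternative treatments of the cells, down to −0.40, with its sign kept in each. Cd248 was higher in the callus (287 against 179 CPM, log2 ratio 0.68, 0.12 to 1.22) and Ly6a lower (889 against 1088 CPM, −0.29, −0.57 to −0.02). Opcml had 5 and 6 UMIs, too few to compare.

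**Figure D5:**
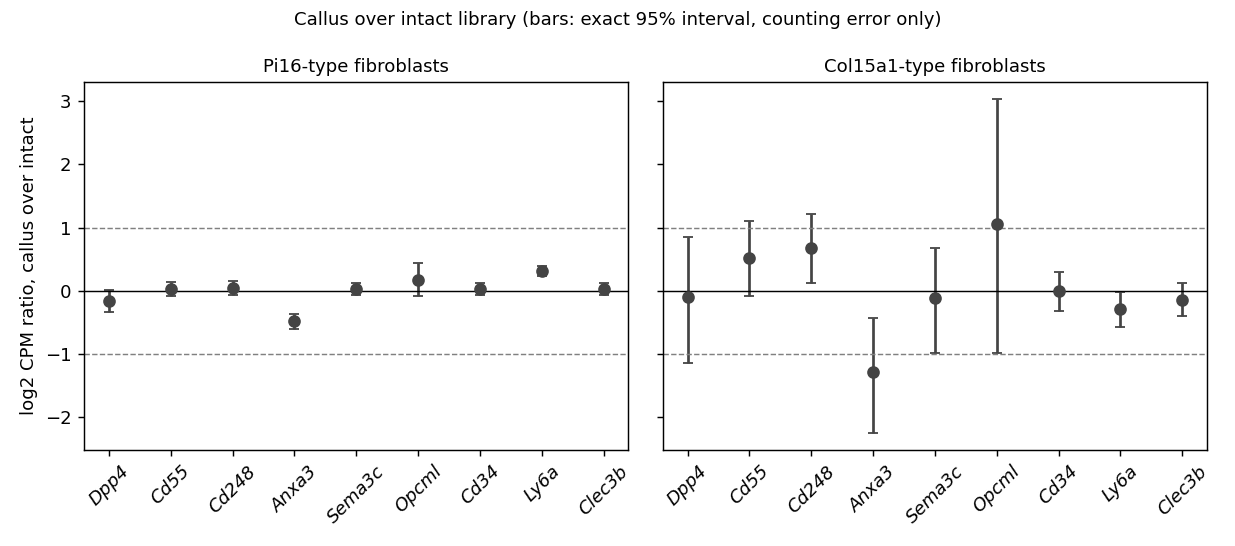
log2 ratio of CPM, callus over intact library (y axis), for the 8 genes and Clec3b (x axis) in Pi16-type (left) and Col15a1-type fibroblasts (right), with exact 95% intervals for counting error and dashed lines at 2-fold. On the left all points lie within 2-fold, with Anxa3 below and Ly6a above 0, and on the right Anxa3 lies below the lower line with wide bars.

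Some Pi16-type fibroblasts carried high levels of inflammatory transcripts. They were split at 990 CPM of Ptx3, Tnfaip6, Cxcl1, Il6, Ccl2 and Ccl7 summed, the median over both libraries, into 106 and 97 intact and 53 and 63 callus cells above and below it. None of the 8 genes was 2-fold apart between cells above and below the split in either library, where 6.2% of 7295 and 8.04% of 6082 genes were. Cd34 was lower in the inflammatory cells of the intact library, 1274 against 1626 CPM, a ratio of 0.784 (0.718 to 0.856), and in the callus the ratio was 0.918 (0.822 to 1.02). Sema3c had a ratio of 0.915 (0.839 to 0.998) in the intact and 1.06 (0.954 to 1.18) in the callus library, and for the other 6 genes the intervals include 1 in both. Clec3b was lower in the inflammatory cells of both, with ratios of 0.872 (0.803 to 0.947) and 0.820 (0.740 to 0.909). Cells above the split were deeper in both libraries, with medians of 8768 against 5902 and 8307 against 7352 UMIs, and the part of depth was not tested.

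Genes that work with the members were counted by list, by the ratio of Pi16-type to Col15a1-type cells. Over all compared genes 9.88% (intact) and 11.3% (callus) were at least 2-fold higher and 7.87% and 8.53% lower, and with lists of at most 12 genes these counts are descriptions. In the Dpp4 list, with relatives and substrates, 0 of 7 intact and 0 of 6 callus genes were 2-fold higher and 3 and 1 were lower. The glypican Gpc3 (424 and 404 CPM in Pi16-type cells) and the related peptidase Fap (137 and 175 CPM) stood highest, and Fap had log2 ratios of −0.59 and −0.83, the other way from Dpp4. Of complement genes, 0 of 4 were higher in the intact and 1 of 4 in the callus library, and 0 and 1 were lower. C3 (1189 and 2396 CPM) and Serping1 (1160 and 1337 CPM) stood highest.

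In the list of Cd248 relatives and ligands 2 of 4 and 2 of 3 genes were 2-fold higher in Pi16-type cells, and 1 and 0 were lower. The lower gene was Clec14a, named after its value was seen. It had 4.12 against 88.3 CPM in the intact library, a log2 ratio of −4.42. Thbd, which encodes thrombomodulin of the same lectin family, had 253 and 254 CPM and log2 ratios of 2.14 and 2.24, and Fn1, the matrix protein fibronectin, had 3099 and 5311 CPM and log2 ratios of 1.48 and 1.73. Of the other annexins 1 of 7 was higher and 1 of 7 lower in each library. Anxa1 had log2 ratios of 1.14 and 1.26, and Anxa2, at 738 and 705 CPM, of 0.46 and 0.24.

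Of class 3 semaphorins and their receptors, 4 of 6 intact and 2 of 5 callus genes were higher and 2 and 0 lower. Genes at 0 UMIs were set to a floor of 3 counts per group. Sema3b had 53.6 and 75.5 CPM in Pi16-type cells, with a log2 ratio of 2.90 (1.30 to 5.21, against 3 UMIs) in the intact library. In the callus library the log2 ratio was 2.08 with 0 UMIs set to the floor, and the exact interval begins at 1.74. The receptor Plxna1 had 133 and 138 CPM and log2 ratios of 2.34 (1.47 to 3.37) and 3.53 (1.65 to 6.59, against 2 UMIs). Sema3d had 63.9 CPM against 0 UMIs in the intact library, 3.16 on the log2 scale with the floor, with no interval given. In the callus it had 70.1 against 71.6 CPM, a log2 ratio of −0.03. Sema3d and Sema3e, at 0 UMIs in intact Col15a1-type cells, are 2 of the 4 genes counted as higher there. The Sema3c receptors Nrp1, Nrp2 and Plxnd1, named after their values were seen, were higher in endothelial-like cells than in the 3 fibroblast types, with 1003 and 765 CPM of Nrp1, 430 and 354 CPM of Nrp2 and 339 and 456 CPM of Plxnd1, where Sema3c had no UMI.

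Of the IgLON relatives of Opcml only Negr1 had enough UMIs in both libraries, with log2 ratios of 1.43 and 1.92. It had 57.7 against 21.5 CPM (intact) and 22.7 against 5.97 CPM (callus). The last value is 1 UMI in the callus Col15a1-type cells, and no interval is given. Lsamp had 6.18 against 97.9 CPM in the intact library. Of the Cd34 list only Podxl2 was found in numbers (22.0 and 30.2 CPM, log2 ratios 0.40 and 0.34). In the Ly6 list 1 of 2 and 1 of 3 genes were higher, Ly6c1 with 917 and 1074 CPM and log2 ratios of 1.62 and 1.51, while Ly6e had −0.28 and −0.13. Among 11 other mesenchymal progenitor surface genes 2 and 1 were higher and 3 and 3 lower. Pdgfra had 488 and 352 CPM in Pi16-type and 974 and 800 CPM in Col15a1-type cells, a log2 ratio of −1.19 in the callus, and Itgb1 had log2 ratios of −0.26 and −0.24. Pdgfra and Ly6a, the sorting pair, thus had ratios of opposite sign between these types.

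The genes most like each member were sought by Pearson correlation of log2(CPM + 10) over 25 groups, each a class in 1 library, among 10606 genes. The groups share 2 libraries and often a class, so r is a description without p. Cd248 was most like Ebf2, Scara5 and Mfap5 (r 0.989, 0.987 and 0.985), Sema3c like Fgf2, Cd248 and Efemp1 (0.987, 0.977 and 0.976) and Opcml like Vegfd, Cadm3 and Fgf2 (0.978, 0.968 and 0.967), where Mfap5 and Efemp1 were gate markers. Ly6a was nearest to Rab6b, Nr3c1 and Ly6c1 (0.923, 0.920 and 0.914) and Cd34 to Casp12, Trip10 and Tmem237 (0.908, 0.904 and 0.899). For the genes also found in blood cells r was lower, with Cd55 nearest to Mturn, Cd248 and Cadm3 (0.826, 0.819 and 0.818), Dpp4 to Rev3l, 1700019D03Rik and Cd55 (0.820, 0.767 and 0.762) and Anxa3 to Gng12, Rtn3 and Igf1r (0.807, 0.796 and 0.789). Among the members themselves r ran from 0.08 for Dpp4 and Anxa3 to 0.98 for Cd248 and Sema3c. Clec3b was closest to Lrrn4cl, Mfap5 and Igfbp6 (0.994, 0.992 and 0.989), and its r with Cd248 was 0.98.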

How the data were processed

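Cells sorted for tdTomato from 1 intact and 1 callus library were sequenced with the 10x 3′ v3 kit. The authors deposited raw UMI counts per gene and cell from Cell Ranger (6.0.0 per the file headers, genome mm10 per the submitters' processing notes), and the paper names Seurat for its analysis. 3′ UMI counts are not divided by gene length. Totals were 12112002 (intact) and 36714322 (callus) UMIs, and counting intervals set the precision. Of 32285 gene identifiers, 32158 (99.6%) were in GENCODE vM21 (GRCm38).

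Barcodes from 500 genes upward with no more than 10% mitochondrial UMIs entered. Each marker's log2(UMIs per 10000 + 1) was standardised over kept cells, and a list's score was the mean. A class needed a score of 1 and 3 detected markers, and a second lineage with at least 0.5 of the top score set the cell aside (6 intact, 24 callus). Fibroblasts were typed by the highest of 3 scores with a lead of 0.5, and 28 and 39 of them lay within 0.25 of a limit. These limits were chosen after several rules had been seen with the genes' levels in view. The members, lists and splits were likewise chosen with earlier results of these data known. Scrublet called 3 and 4 doublets, too few to count as working, so no call was used. Its scores served in 1 alternative, which left out the 12 intact and 87 callus cells with the highest scores. The tdTomato transcript was not analysed here.

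Genes named are the 8 members, Clec3b, the 3 genes most like each over groups of at least 20 cells (at least 200 UMIs), and of the related lists the 2 highest in intact Pi16-type cells and those at least 4-fold apart between the types in both libraries. Ratios have exact conditional, CPM exact Poisson and shares exact Clopper-Pearson intervals (95%, counting error only), and a count of 0 allows 3. Thinning drew 2500 UMIs per cell, set from percentile 10 of fibroblast depth rounded down to a multiple of 500. Ratios and their intervals were tested on simulated counts, and thinning was checked on real fibroblasts for Cd34. The simulated counts held Poisson error only, so that test does not bear on spread between cells. The gates were not tested on simulated data. 10 alternatives were planned and 3 added after seeing the data. Tools were python 3.11.15, numpy 2.4.6, scipy 1.17.1, pandas 2.3.3, scanpy 1.11.5, anndata 0.12.19 and matplotlib 3.10.9.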

Additional observations from a re-analysis of the deposited data

Results flagged for a closer look

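Ly6a moved in opposite directions in the fibroblast types. The callus over intact log2 ratio was 0.31 (0.23 to 0.40) in Pi16-type and −0.29 (−0.57 to −0.02) in Col15a1-type fibroblasts, each from 1 library per condition, and the difference between the types was not tested. The first kept its sign under 10 of 10 alternatives and the second under 8 of 10.

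The barcodes removed by the cell filter were not used in any comparison and still held transcripts of the 8 genes, 78 UMIs in the 665 intact and 257 UMIs in the 692 callus barcodes. This is 0.468% and 1.19% of all UMIs of these genes, at 17.0 and 106 CPM, against 2207 and 624 CPM in kept cells.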

How the results depend on the processing

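The higher level of the members in Pi16-type than in Col15a1-type fibroblasts kept its sign for all 8 genes in both libraries under all 10 alternatives that recompute it. The count at least 2-fold higher was 6 in the intact library under each of them and 6 to 8 in the callus, and with a fold of 1.5 it was 8 in each. The highest class was a fibroblast class for all 8 genes under each alternative. The number of members 2-fold apart between callus and intact Pi16-type cells was 0 throughout, with a fold of 1.5 too. In Col15a1-type cells (main value 1) it was 2 with Leiden clusters in place of gates, 3 with types from Pi16 and Col15a1 UMIs alone, 2 with a fold of 1.5, and 0 with cells of 2 lineages kept, with the mean of single-cell CPM or with no lead between types (the last added after seeing the data). The genes counted changed as well. With Leiden clusters Cd248 and Sema3c had log2 ratios of 1.66 and 1.65, higher in the callus, against 0.68 and −0.12 in the main run. With types from Pi16 and Col15a1 UMIs alone Cd34 had −1.12, against −0.01. The cause was not tested, and 23 callus cells limit the count in Col15a1-type cells.

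The mean number of members per Pi16-type cell (6.63 intact, 6.66 callus) was 6.47 and 6.24 with types from Pi16 and Col15a1 UMIs alone, 6.15 in the callus with Leiden clusters, 7.38 and 7.33 unthinned, and 5.21 and 5.24 when a gene needed 2 UMIs. The mean share of Clec3b-positive fibroblasts carrying a member (71.4% and 66.1%) was 82.9% and 78.7% unthinned and 54.2% and 53.1% with 2 UMIs, as deeper cells and a lower limit show more genes. Of the values of single genes, 418 stayed within their counting interval and 78 moved out of it. In callus over intact ratios, Anxa3, Opcml and Ly6a kept their sign in Pi16-type cells under 10 of 10 alternatives, and Cd55, Sema3c and Cd34, near 0, under 7. In Col15a1-type cells Dpp4 and Sema3c kept it under 5 of 10. Types scored within fibroblasts (added) gave 160 intact and 73 callus Pi16-type cells in place of 203 and 116, and log2 ratios over Col15a1-type cells down to 2.37 for Sema3c, 2.38 for Anxa3 and 0.51 for Cd34 in the callus. No paired analysis was possible because each condition is 1 library. Without replicates none could be left out.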
